A study of Mus musculus with 6 samples.

Results

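Platelet alpha-granule genes were followed in RNA-seq gene counts from mouse femur. The members are the 10 rows of the count table, of 43346 in all, that carry the symbols Pf4, Ppbp, Vwf, Thbs1, Mmrn1, F5, F13a1, Nbeal2, Treml1 and Pdgfb. They were chosen by name for their place in the alpha-granule, with earlier results of these data known. All 10 passed the filter on low counts. The animals were C57BL/6 mice, an inbred laboratory strain, aged 4 months. In the radiated group an image-guided X-ray beam gave the right femur a single dose of 24 Gy (gray, the unit of absorbed dose) at 6.6 Gy per minute, aimed at 5 mm of the distal end of the bone, above the knee. The left femur of such animals received no radiation and made up the non-radiated group, so the controls are legs of treated animals and not of untreated ones. Both groups were taken on day 21, ahead of a bone loss seen at day 28, with 3 libraries each, and the labels do not say whether a library is 1 animal. Adjusted p-values therefore measure the spread between these libraries.

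Alpha-granules are the most abundant storage granules of platelets, the cell fragments that start clotting. Megakaryocytes, the large marrow cells that shed platelets, make most of the cargo themselves and pack it while they mature. After activation the granules release chemokines, adhesive proteins, clotting factors and growth factors, and their membrane adds receptors to the platelet surface. Several of these genes are also read in other cells: Vwf is a classic gene of endothelial cells, F13a1 of monocytes and macrophages, and Thbs1 and Pdgfb of several cell types.

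Total gene counts ran from 34034251 to 48708383 per library. A single row, AY036118, held 32.9% of the counts of non-radiated library 2 and 0.321% to 5.61% elsewhere. The members had 405 to 23566 counts in a library, so counting error was small for each of them. Markers of bone-forming cells and of red cell precursors were counted in every library (9 and 8 genes, none at 0). The 9 bone-forming markers summed to 4606 to 6949 CPM (read counts brought to a common library total) in non-radiated and 3428 to 4333 CPM in radiated femur, with 4 called lower, none higher and a median of -0.51 on the log2 scale. Their part in the values of the members was not tested. The 10 skeletal muscle markers, from tissue that the protocol removed, summed to 413 to 768 CPM in non-radiated and 546 to 5351 CPM in radiated femur, highest in radiated library 2. None of the 10 was called, with adjusted p of 0.0704 to 0.126 by edgeR's quasi-likelihood test.

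Pf4 and Ppbp are neighbours on chromosome 5, with 2374 bases between the end of Ppbp and the start of Pf4, and both fell. Promoter sequence of RefSeq (build GRCm38.p6, 250 bases before to 50 bases after the start) was found for 7 of the 10 members, and not for Vwf, Thbs1 and Pdgfb. Shown here are the neighbours Pf4 (chr5:90772185-90772484, plus strand) and Ppbp (chr5:90768268-90768567, plus strand), Mmrn1 as a further gene that fell by a like amount (chr6:60944067-60944366, plus strand, inside the longer interval the count table gives), and Nbeal2 (chr9:110654112-110654411, minus strand) as a member that was not called. All are written 5′ to 3′ along the gene. Capitals mark matches, on either strand, to 7 short words for factors of this lineage: AGATAA (for GATA factors), TGATAA (also for GATA factors), CCGGAA (for ETS factors), AGGAAG (also for ETS factors), TGAGTCA (for NF-E2 and AP-1), TGTGGT (for RUNX factors) and TGCGGT (also for RUNX factors).
Pf4: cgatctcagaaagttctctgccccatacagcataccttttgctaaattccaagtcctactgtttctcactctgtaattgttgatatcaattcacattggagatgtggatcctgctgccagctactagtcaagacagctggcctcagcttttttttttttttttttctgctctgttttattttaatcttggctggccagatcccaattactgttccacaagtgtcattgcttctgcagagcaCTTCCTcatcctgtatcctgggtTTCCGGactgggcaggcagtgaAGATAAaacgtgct
Ppbp: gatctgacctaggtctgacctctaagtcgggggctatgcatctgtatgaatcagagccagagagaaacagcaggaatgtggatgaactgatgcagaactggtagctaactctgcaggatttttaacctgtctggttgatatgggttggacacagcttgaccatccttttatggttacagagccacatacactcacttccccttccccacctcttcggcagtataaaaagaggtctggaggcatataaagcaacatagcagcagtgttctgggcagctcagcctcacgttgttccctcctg
Mmrn1: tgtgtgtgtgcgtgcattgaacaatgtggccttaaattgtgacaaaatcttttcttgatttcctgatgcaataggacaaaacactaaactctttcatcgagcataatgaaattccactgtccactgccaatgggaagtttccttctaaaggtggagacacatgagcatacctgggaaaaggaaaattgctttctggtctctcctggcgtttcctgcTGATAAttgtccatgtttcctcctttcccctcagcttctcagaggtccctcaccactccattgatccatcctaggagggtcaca
Nbeal2: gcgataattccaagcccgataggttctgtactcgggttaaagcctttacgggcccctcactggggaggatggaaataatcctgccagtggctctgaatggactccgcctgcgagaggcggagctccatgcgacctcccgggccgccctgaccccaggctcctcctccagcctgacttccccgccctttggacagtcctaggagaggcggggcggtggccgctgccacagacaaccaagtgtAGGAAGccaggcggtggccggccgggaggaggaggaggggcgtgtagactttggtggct

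The Pf4 window held 3 matches, all near the start: AGGAAG on the opposite strand from position -9, CCGGAA on the opposite strand from position 15 and AGATAA from position 37, counted with the first base of the gene as 1. Of 32851 promoters of the same length, 35.4% held AGGAAG, 14.9% held CCGGAA and 11.2% held AGATAA. In Mmrn1 the only match was TGATAA from position -34, a word found in 9.05% of promoters. Nbeal2 held a single AGGAAG, also from position -9. Ppbp held none of the 7 words, and neither did Treml1. No word contains another, and no matches overlapped. A match or its absence describes letters in this window only.

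Of the 10 genes, 8 were lower in radiated femur and none was higher at a Benjamini-Hochberg adjusted p under 0.05 by edgeR's quasi-likelihood test, beside 3.24% of the 18757 tested genes called lower, 4.56% called higher and 7.8% called either way. The count of members called lower was 9 with no filter on low counts and 9 by DESeq2, where 2.71% and 4.61% of all genes were. It was 7 under scaling by library totals (0.778% of all genes) and 8 with the replicate number as a block (3.39%). The median log2 fold change was -1.15 over the members and 0.00 over all genes tested. Because earlier results of these data were known at the choice of members, these contrasts with all genes are descriptive and no independent test. At least 2-fold lower as well as called were 5 members (Ppbp, Treml1, Pf4, Mmrn1 and Vwf), beside 0.688% of all genes. In 9 of the 10 every radiated library lay below every non-radiated library, beside 11.5% of all genes. The summed level of the 10 genes was 2138, 2226 and 2144 CPM in non-radiated libraries 1, 2 and 3 and 1116, 1118 and 1022 CPM in radiated libraries 1, 2 and 3. In bulk tissue, fewer megakaryocytes and less RNA per megakaryocyte cannot be told apart.

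**Figure D1:**
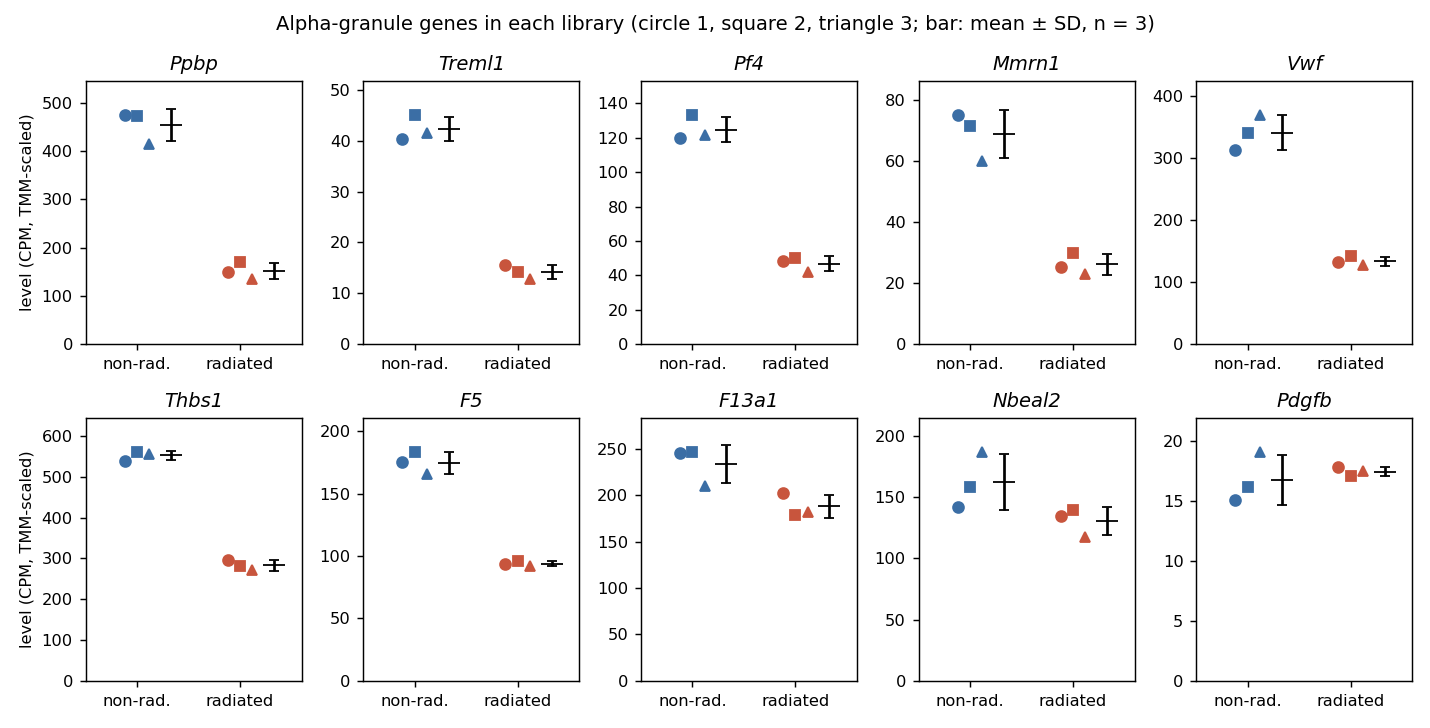
Level of each alpha-granule gene in each library, in CPM on a linear axis from 0, with the non-radiated libraries in blue and the radiated libraries in red. Black bars give mean ± SD over 3 libraries, and only for Pdgfb do the groups overlap.

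Both chemokines of the granule fell. Ppbp (ENSMUSG00000029372, chromosome 5, 90768518 to 90770060) encodes pro-platelet basic protein, which is cut to a chemokine that draws neutrophils. It was at 474, 472 and 415 CPM in non-radiated libraries 1, 2 and 3 and at 149, 170.1 and 136 CPM in radiated libraries 1, 2 and 3. The groups were far apart, with the lowest non-radiated value well above the highest radiated one. The log2 fold change came to -1.58, with SE 0.09 and adjusted p 1.53e-05 by edgeR, a level 66.6% lower. Pf4 (ENSMUSG00000029373, chromosome 5, 90772435 to 90773381) encodes platelet factor 4, a chemokine that binds heparin and is widely used to mark megakaryocytes. Its levels were 119.5, 133 and 121 CPM in the non-radiated and 48.4, 50.0 and 42.0 CPM in the radiated libraries. That is a fall of 62.4%, and the log2 fold change came to -1.41, with SE 0.08 and adjusted p 1.43e-05 by edgeR. Within each library Ppbp had 3.96, 3.55 and 3.42 counts per count of Pf4 in non-radiated libraries 1, 2 and 3, against 3.09, 3.40 and 3.23 in the radiated ones. The neighbours thus fell by similar amounts, Ppbp slightly more.

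The rest of the same CXC chemokine cluster was far lower in counts. Cxcl5, a neutrophil-attracting chemokine, had 124, 80 and 153 counts in the non-radiated group against 62, 73 and 68 counts in the radiated group. It was called lower, and the log2 fold change came to -1.18, with SE 0.15 and adjusted p 0.00201 by edgeR. Cxcl1, Cxcl2, Cxcl3 and Cxcl15 had at most 17 counts in any library.

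Among the adhesive proteins, Vwf and Mmrn1 fell as far as Pf4 and Thbs1 by less. Vwf (ENSMUSG00000001930, chromosome 6, 125546774 to 125686679) encodes von Willebrand factor, the multimer that tethers platelets to an injured vessel wall. It was at 313, 341 and 369 CPM in non-radiated libraries 1, 2 and 3 and at 133, 142 and 128 CPM in radiated libraries 1, 2 and 3. All radiated values lay close together and far below the others, and the log2 fold change came to -1.35, with SE 0.07 and adjusted p 1.43e-05 by edgeR. The 14 endothelial markers, listed because Vwf is also an endothelial gene, summed to 476 to 524 CPM in non-radiated and 470.2 to 533 CPM in radiated femur. None of them was at 0, 2 were called lower and none higher, and their median log2 fold change was 0.05. The 2 called were Tek, the angiopoietin receptor, at -0.60 and the junction gene Esam, which platelets carry too, at -0.55 (edgeR adjusted p 0.00325 and 0.00480). Scaled by library totals they were at -0.41 and -0.36 and neither was called (0.479 and 0.558).

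Mmrn1 (ENSMUSG00000054641, chromosome 6, 60924976 to 60989378) encodes multimerin 1, which holds factor V in the granule. Levels were 74.9, 71.5 and 60.1 CPM in the non-radiated and 25.3, 29.9 and 23.1 CPM in the radiated libraries, and the log2 fold change came to -1.40, with SE 0.11 and adjusted p 0.000104 by edgeR. Its spread within each group was the widest, relative to the mean, of the 7 members that fell most. Thbs1 (ENSMUSG00000040152, chromosome 2, 118111876 to 118127133), for thrombospondin 1, a matrix protein that activates latent TGF-beta and binds CD36 and CD47, had the highest counts of all members. It was at 539.6, 560.4 and 556 CPM in non-radiated and 297, 281 and 272 CPM in radiated libraries. The groups were tight and well apart, and the log2 fold change came to -0.96, with SE 0.06 and adjusted p 2.29e-05 by edgeR, 48.7% lower.

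The 2 clotting factors differed in the size of their change. F5 (ENSMUSG00000026579, chromosome 1, 164151838 to 164220277) encodes factor V, the cofactor that speeds thrombin formation. Its levels of 175, 183 and 166 CPM in the non-radiated libraries stood against 93.3, 95.9 and 92.2 CPM in the radiated ones, and the log2 fold change came to -0.90, with SE 0.05 and adjusted p 1.95e-05 by edgeR. F13a1 (ENSMUSG00000039109, chromosome 13, 36867178 to 37050244) encodes the catalytic subunit of factor XIII, which crosslinks fibrin. It was at 245, 246 and 209.8 CPM in non-radiated and 202, 179 and 182 CPM in radiated libraries. The groups did not overlap, but non-radiated library 3 and radiated library 1 nearly met. The log2 fold change came to -0.32, with SE 0.08 and adjusted p 0.0405 by edgeR. The F13a1 call survived removal of non-radiated library 3 (edgeR adjusted p 0.0134). It was lost when non-radiated library 1 (0.131) or 2 (0.123) was removed, and when radiated library 1 (0.0507), 2 (0.114) or 3 (0.0952) was. Scaling by library totals also ended it (0.815).

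Macrophages and monocytes also make F13a1, and their 14 markers summed to 2816 to 3094 CPM in non-radiated and 2717 to 3292 CPM in radiated femur, with none at 0. Of these, 7 were called higher and 1 lower, and the median was 0.33 on the log2 scale. The log2 fold change was negative for 5 of the 14. Among these, Ly6c2, Ms4a6c, Ccr2 and Lyz2 were at -0.27, -0.24, -0.14 and -0.13 and not called (edgeR adjusted p 0.103, 0.127, 0.461 and 0.479). Lyz2 held much of the sum, at 1627 to 1809 CPM in non-radiated and 1405 to 1727 CPM in radiated femur. The complement genes C1qa, C1qb and C1qc, made by tissue macrophages, were higher by 0.57, 0.60 and 0.62 on the log2 scale (edgeR adjusted p 0.00282, 0.00212 and 0.00556), and Cd163, the haemoglobin scavenger receptor, was lower at -0.91 (0.00193). The part of these cells in the F13a1 values was not tested.

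The granule proteins that are not released as cargo split as well. Treml1 (ENSMUSG00000023993, chromosome 17, 48359916 to 48367174) encodes TLT-1, a receptor of the alpha-granule membrane found in platelets and megakaryocytes. It was at 40.4, 45.0 and 41.6 CPM in non-radiated and 15.6, 14.3 and 12.8 CPM in radiated libraries. Each radiated value was far under each non-radiated one, and the log2 fold change came to -1.57, with SE 0.09 and adjusted p 1.51e-05 by edgeR. Nbeal2 (ENSMUSG00000056724, chromosome 9, 110624789 to 110654161) encodes a large BEACH-domain protein needed for alpha-granule formation and lost in human grey platelet syndrome. It was at 142, 158 and 187 CPM in non-radiated and 134, 139.6 and 117 CPM in radiated libraries. These groups did not overlap but lay close, and the log2 fold change of -0.31 (SE 0.10) was not called (edgeR adjusted p 0.104). It was called with no filter on low counts (edgeR adjusted p 0.0263) and by DESeq2's Wald test (0.0107).

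Pdgfb (ENSMUSG00000000489, chromosome 15, 79995900 to 80014808) encodes the B chain of platelet-derived growth factor, which acts on pericytes and other mesenchymal cells. It was at 15.1, 16.2 and 19.1 CPM in non-radiated and 17.8, 17.0 and 17.5 CPM in radiated libraries. The radiated values lay within the non-radiated range, and the log2 fold change came to 0.05, with SE 0.10 and adjusted p 0.807 by edgeR. A p-value of this size does not show that the levels were equal. Without non-radiated library 1 the value was -0.02. The 9 pericyte and stromal markers, of cells that respond to it, had 1 call lower and 3 higher. Among them Acta2 and Tagln, genes of contractile cells, were higher by 1.72 and 2.40 on the log2 scale (edgeR adjusted p 0.000517 and 0.000446). The other higher call was Rgs5 at 0.34, and the lower one was Lepr at -0.48 (edgeR adjusted p 0.0342 and 0.00381). Scaling by library totals took both of these calls away (0.179 and 0.617). The remaining 5 markers were not called. Of the receptors of Pdgfb, Pdgfrb was at -0.03 (edgeR adjusted p 0.900), and Pdgfra was called lower at -0.63 (0.0112), which scaling by library totals took away (0.299).

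**Figure D2:**
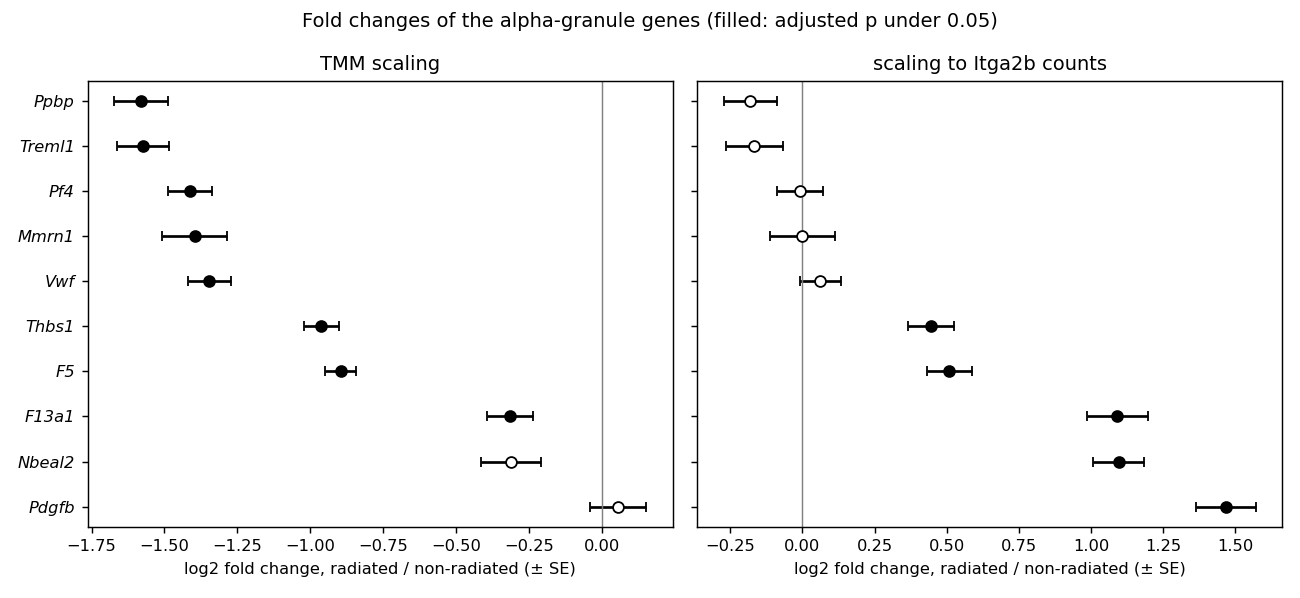
Log2 fold change of each alpha-granule gene with its SE (bars), scaled by TMM (left) and by the counts of Itga2b (right), with filled points for adjusted p under 0.05. On the left 8 genes are called lower, and on the right the 5 genes with the largest falls lie near 0 and the other 5 are called higher than Itga2b.

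The order of the levels was set per kilobase of gene length, since counts of genes of different length cannot be compared directly. In non-radiated femur Ppbp was highest at 420.0 ± 31.1 CPM per kilobase (mean ± SD, n = 3), then Pf4 at 213 ± 12.4 and Thbs1 at 90.9 ± 1.81. Below these lay F13a1 at 59.5 ± 5.30, Treml1 at 33.9 ± 1.92, F5 at 23.5 ± 1.16, Vwf at 21.2 ± 1.75, Nbeal2 at 17.0 ± 2.38, Mmrn1 at 11.7 ± 1.32 and Pdgfb at 5.75 ± 0.709 CPM per kilobase. Neighbours in this order did not overlap, except F5 with Vwf and Vwf with Nbeal2. In radiated femur Ppbp (140.4 ± 16.1 CPM per kilobase) and Pf4 (79.8 ± 7.19) stayed at the top. F13a1 (47.8 ± 3.22) then overlapped Thbs1 (46.6 ± 2.14). By their means Nbeal2 (13.6 ± 1.23) and F5 (12.6 ± 0.254) lay above Treml1 (11.4 ± 1.14), but the ranges of Nbeal2, F5 and Treml1 all overlapped one another. Mmrn1 was last at 4.45 ± 0.589 CPM per kilobase, under Pdgfb at 5.97 ± 0.131. As a share of the summed CPM of the 10 genes, Ppbp was 19.3% to 22.2% in non-radiated and 13.3% to 15.2% in radiated libraries, F13a1 was 9.79% to 11.5% and 16.0% to 18.1%, and Thbs1 was 25.2% to 25.9% and 25.1% to 26.6%.

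To compare the genes with one another free of the scaling between libraries, each was divided by megakaryocyte genes of the same library. Itga2b, the integrin chain that platelets use to bind fibrinogen, was at 218, 230.4 and 237 CPM in non-radiated and 84.8, 91.5 and 82.3 CPM in radiated libraries. Against Itga2b the members fell into 3 sets. Pf4, Ppbp, Vwf, Mmrn1 and Treml1 lay closest to Itga2b, with differences in log2 ratio from -0.18 for Ppbp to 0.06 for Vwf and overlapping groups, which does not show that they fell alike. Thbs1 and F5 fell less, by 0.44 and 0.51 on the log2 scale, and F13a1, Nbeal2 and Pdgfb stood higher by 1.09, 1.10 and 1.47. In these last 5 the groups did not overlap, each with an exact two-sided permutation p of 0.1 (the smallest that 3 against 3 allows) and 0.2 after adjustment over the 10 genes. Against Itga2b the groups were apart for 96.4% of all genes.

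In an edgeR fit over all genes with the counts of Itga2b as the scaling, the same 5 were called higher, with adjusted p of 0.000218 for Thbs1, 5.35e-05 for F5, 1e-06 for F13a1, 1.84e-07 for Nbeal2 and 7.15e-08 for Pdgfb. So were 97.4% of all genes, because Itga2b itself fell. In that fit the other 5 members were not called, at adjusted p of 0.925 for Pf4, 0.0809 for Ppbp, 0.399 for Vwf, 0.999 for Mmrn1 and 0.119 for Treml1, while 0.048% of all genes were called lower. With Tubb1, the platelet beta-tubulin gene, in the place of Itga2b the groups also overlapped for these 5 members and were apart for the other 5, beside 96.7% of all genes apart. This is no independent check. Tubb1 and Itga2b rank 1 and 5 among genes outside the members in likeness to Pf4, so overlap of genes like Pf4 with them was close to built in.

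A wider reference, the main one planned for the ratios, was the geometric mean of 13 megakaryocyte genes without a granule role. Values against it differed from those against Itga2b. The mean log2 fold change of these 13 genes was -1.01 and the median -1.22, against -1.41 for Itga2b. Rasgrp2, at -0.28, and 3 genes that were not called, P2ry12 at -0.51, Nfe2 at -0.25 and Pkhd1l1 at -0.19, lay nearest to 0. An edgeR fit scaled to it was added after the data were seen. In that fit Ppbp, Treml1, Pf4, Mmrn1 and Vwf were called lower, at -0.58, -0.57, -0.41, -0.39 and -0.34 (edgeR adjusted p 1.36e-05, 0.000145, 0.000223, 0.00178 and 0.00195), beside 0.309% of all genes. F13a1, Nbeal2 and Pdgfb were called higher, at 0.70, 0.69 and 1.06, beside 92.7% of all genes. Thbs1 at 0.04 (edgeR adjusted p 0.574) and F5 at 0.11 (0.106) were not called. With the replicate number as a block these 8 calls were the same, beside 0.363% of all genes lower and 93.7% higher. As ratios within a library, 9 members did not overlap between the groups, all but Thbs1, beside 92.5% of all genes in either direction and 0.352% with radiated lower. Whether the first 5 fell more than the lineage as a whole therefore depended on the reference genes. In the ratios within a library, a change of reference shifts all members by the same amount, so it leaves their order as it was. In the edgeR fits F13a1 lay just above Nbeal2 against the wider reference and just below it against Itga2b (1.091 and 1.096).

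**Figure D3:**
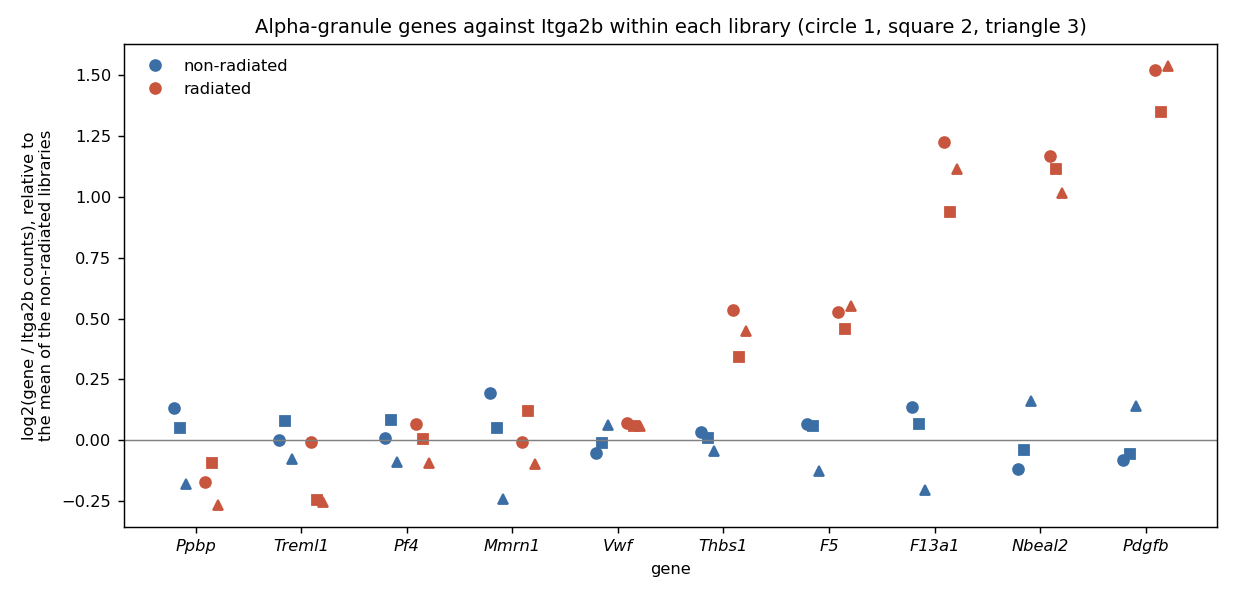
Log2 ratio of the counts of each alpha-granule gene to the counts of Itga2b in the same library, less the mean of the non-radiated libraries. Blue and red points overlap for the 5 genes on the left, and all red points lie above all blue points for Thbs1, F5, F13a1, Nbeal2 and Pdgfb.

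The genes whose profile over the 6 libraries was most like that of Pf4 were found by the root mean square distance of log2 CPM values, each gene centred on its own mean. Outside the members these were Tubb1 at a distance of 0.0422, Mrvi1 at 0.0665, Trpc6 at 0.0672, Gucy1b3 at 0.0680 and Itga2b at 0.0684. Gucy1b3 encodes a subunit of the nitric oxide receptor guanylate cyclase, and Mrvi1 a protein of the cyclic GMP pathway. Of the members, Treml1 (0.0945) and Vwf (0.0955) were nearest to Pf4, followed by Ppbp (0.114) and Mmrn1 (0.114). Thbs1 (0.236) and F5 (0.269) were farther, and F13a1, Nbeal2 and Pdgfb were at 0.561, 0.567 and 0.752. The group difference makes up most of each profile, so these distances mainly restate the fold changes and carry no test.

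The members were next set beside other genes of the granule, grouped by role. Of 13 membrane proteins of the granule and of the platelet surface, 10 were called lower and none higher, and their median on the log2 scale was -1.09. Selp, which encodes P-selectin, the adhesion receptor that moves from the granule to the surface, was at 33.6, 32.8 and 32.7 CPM in non-radiated and 13.9, 14.2 and 12.6 CPM in radiated libraries (-1.28, SE 0.07, edgeR adjusted p 1.53e-05). Itgb3, the partner of Itga2b, fell by 1.09 on the log2 scale (adjusted p 1.43e-05). The 3 that were not called are Cd36 at -0.01, Cd63 at -0.00 and Pecam1 at 0.20, all of which other marrow cells also express. This list, like the members, holds genes that an earlier analysis of these libraries had already shown to be lower.

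Of 14 genes for granule release, 6 were called lower and none higher (median -0.19). Rab27b, a small GTPase of granule secretion, was at 91.6, 83.4 and 79.9 CPM in non-radiated and 27.1, 29.3 and 27.6 CPM in radiated libraries (-1.60, SE 0.07, edgeR adjusted p 5.94e-06), and its effector Sytl4 fell by 1.27 (adjusted p 2.97e-05). Stx11, a membrane fusion protein, fell by 0.62 (adjusted p 0.000728), and scaled by library totals it was at -0.42 and not called (0.386). The other 3 called, Rab27a, Stxbp5 and Snap23, fell by 0.34, 0.29 and 0.26.

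Genes for granule formation moved little. Of 11, only Rab11a was called, lower at -0.28 (adjusted p 0.0442 by edgeR), and the median was -0.07. The Rab11a call was kept in only 6 of 14 alternatives, and was lost with the replicate block (edgeR adjusted p 0.0566). Vps33b and Vipas39, whose products form a complex needed for alpha-granule biogenesis, were at 0.01 and -0.01 (edgeR adjusted p 0.962 and 0.938), and Gata1, the transcription factor of the megakaryocyte and red cell lineages, was at -0.29 (0.0902). Nbeal2 at -0.31 lay just under the range of this list (-0.29 to 0.02). These genes are widely expressed or shared with red cell precursors, whose 8 markers had a median of -0.12 and no call. The part of other cells in the values of the formation genes was not tested.

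**Figure D4:**
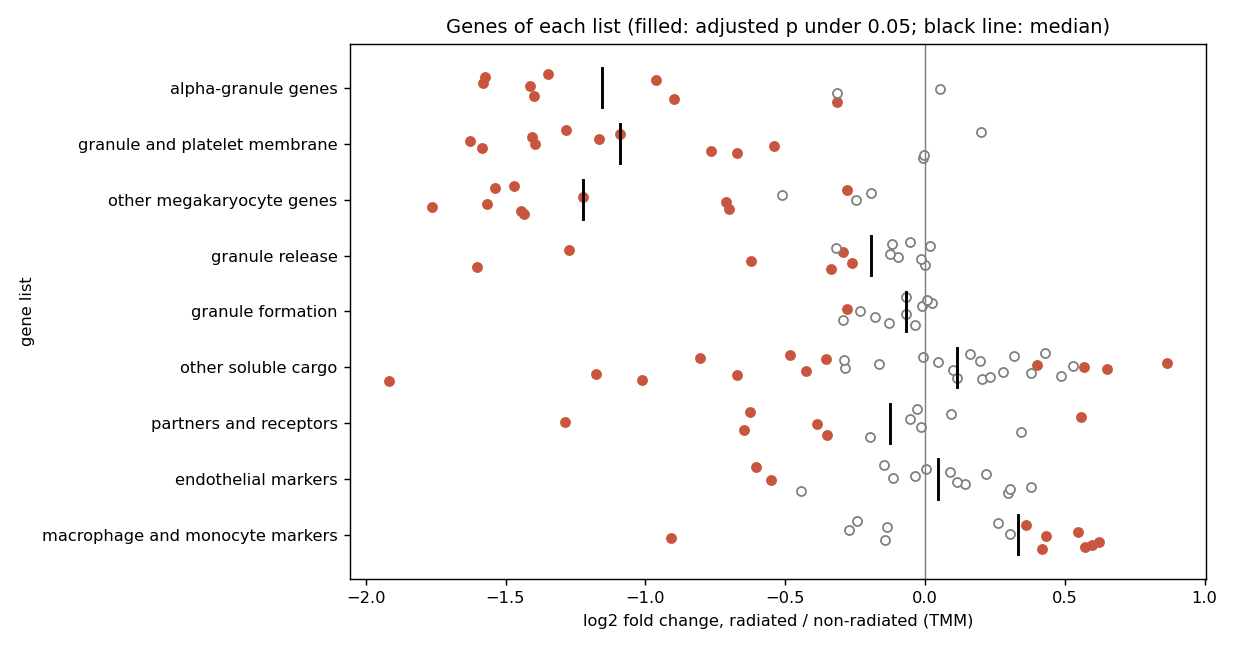
Log2 fold change (TMM scaling) of every tested gene of 9 lists, with filled points for adjusted p under 0.05 and a black line at the median of each list. The members spread from -1.58 to 0.05, their median is close to those of the membrane and other megakaryocyte lists, and the formation list stays near 0.

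Other soluble cargo, much of it made by many cell types, went both ways. Of 29 genes 8 were called lower and 4 higher, with a median of 0.12. Angpt1, the angiopoietin that steadies vessels, was at 43.6, 45.0 and 38.0 CPM in non-radiated and 20.7, 22.2 and 19.8 CPM in radiated libraries (-1.01, SE 0.08, edgeR adjusted p 0.000144). Tfpi, the inhibitor of tissue factor, fell by 0.80 (adjusted p 0.000420) and the protease inhibitor Timp3 by 0.48 (0.000533). Both of these calls were lost under library totals alone (0.0587 and 0.617). Among those higher in radiated femur were Gas6, a ligand of the TAM receptors, by 0.65 (edgeR adjusted p 0.00510) and Igf1, insulin-like growth factor 1, by 0.57 (0.00669). The 7 genes for plasma proteins that platelets take up rather than make, among them the fibrinogen genes Fga, Fgb and Fgg, were all under the filter, with at most 25 counts in any library.

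Among 12 partners and receptors of the cargo, 5 were called lower and 1 higher (median -0.12). F2rl3, for the thrombin receptor PAR4 of mouse platelets, was at 18.0, 16.5 and 17.2 CPM in non-radiated and 6.84, 7.28 and 7.06 CPM in radiated libraries (-1.29, SE 0.09, edgeR adjusted p 3.69e-05). F10, for clotting factor X, fell by 0.65 (adjusted p 0.00257, 0.373 under library totals alone). Lrp1, a clearance receptor of macrophages and other cells, rose by 0.56 (adjusted p 0.00844). Of 17 relatives and neighbours of the members, 5 were called lower and 4 higher (median 0.05). Besides Cxcl5, lower calls included Treml2, from the gene family of Treml1, at -0.34, and F8, for clotting factor VIII, at -0.42 (edgeR adjusted p 0.00550 and 0.0202). Under library totals alone both calls were lost (0.774 and 0.729), and that of F8 also without library 1 or 2 of either group (0.0583 to 0.0759). Thbs2 and Thbs4, thrombospondins of connective tissue, were higher by 0.96 and 2.02 (edgeR adjusted p 0.0207 and 0.0165), and Trem2, a receptor of macrophages, was higher by 0.77 (0.00137). Without non-radiated library 2 the calls of Thbs2 and Thbs4 were lost (0.0784 and 0.0633), as was that of Thbs2 without radiated library 1 (0.0745) and of Thbs4 without non-radiated library 3 (0.0548).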

How the data were processed

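Gene counts of 6 mouse femur libraries, 3 radiated and 3 non-radiated, were used. The counts were deposited by the authors as whole numbers per gene, and the table also holds the authors' RPKM values, per the file headers, which entered no test. Per the labels' protocols, muscle was removed, RNA was taken from homogenized bone and libraries were made with a stranded mRNA kit. Per the submitters' processing notes, bcl2fastq, STAR 2.5.2b, Subread and featureCounts were used with build mm10. Annotation, filters and the strand setting are not given in the sources used here. F5, Thbs1, Nbeal2 and Pdgfb overlap other genes, of 1 to 68 counts per library.

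Counts were tested on the whole table with edgeR 4.0.16 in R 4.3.3. Filtering with filterByExpr (minimum count 10, minimum total 15) left 18757 genes, libraries were scaled by TMM (trimmed mean of M-values), and the quasi-likelihood functions glmQLFit and glmQLFTest used a design of group alone. The Benjamini-Hochberg adjustment covered every tested gene, and called means an adjusted p under 0.05. CPM values are TMM-scaled, and the SE is the log2 fold change divided by the square root of F. On counts drawn for 18757 genes for this comparison, the fit recovered 88% of genes with a 2-fold and 98% with a 4-fold change.

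Both groups carry the numbers 1 to 3. Deviations from the group means correlated at 0.166, 0.277 and 0.187 across genes for equal numbers, so equal numbers were treated as pairs in an alternative, the replicate block. The main fit and the permutation test were unpaired. Other alternatives were DESeq2 1.42.0 size factors and Wald test, library totals alone, 2 other filters, limma-voom (limma 3.58.1), counts without AY036118 and leaving out each library. Fits scaled to Itga2b or to the megakaryocyte reference were added after seeing the data. Members and lists were chosen with earlier results of these data known. Of 186 list entries 183 were found by symbol and 2 by gene ID. Named genes are the members, up to 3 called genes per direction and list with the smallest p, and the 5 nearest to Pf4; 1 gene that this rule names is not reported here. Rab27a, Stxbp5, Snap23, Gata1, Vps33b, Vipas39, Pdgfrb, Cd36, Cd63, Pecam1, P2ry12, Rasgrp2, Nfe2, Pkhd1l1, Ly6c2, Ms4a6c, Ccr2, Lyz2 and the genes at very low counts were named after their values were seen.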

Additional observations from a re-analysis of the deposited data

How the results depend on the processing

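The number of members called, 8 of 10, was 7 to 9 under all 14 alternatives: 9 with no filter on low counts and with DESeq2's Wald test, 7 under library totals alone, and 7 to 8 when each library was left out in turn. Ppbp, Treml1, Pf4, Mmrn1, Vwf, Thbs1 and F5 were called lower in each of the 14. The replicate block changed the call of no member (8 called). Of the other named genes, Rab11a and the pericyte marker Rgs5 lost their calls with the block (adjusted p 0.0566 and 0.0514). Library totals alone, which let AY036118 enter the scaling, put the median over all genes at 0.19 on the log2 scale. Under that scaling Pf4 was at -1.21, Ppbp at -1.38, Thbs1 at -0.77 and F5 at -0.70, and the medians of the formation, partner and erythroid lists turned positive, at 0.13, 0.067 and 0.078. Values near 0 changed sign when a library was left out: Pdgfb ran from -0.020 to 0.155 (negative without non-radiated library 1), the median of the relatives from -0.044 to 0.143 (negative without non-radiated libraries 2 and 3), and the endothelial median from -0.021 to 0.075 (negative without library 1 of either group). The cause was not tested.

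The count of all called genes, 1463, ran from 764 to 1376 when each library was left out in turn. The lowest values came without radiated library 1 (764), non-radiated library 2 (819) and non-radiated library 1 (905). All of these fits, also those with more calls, had a library fewer than the main fit. Why the counts differed among them was not tested. In the ratios to megakaryocyte genes, 9 members did not overlap between groups against the wider reference (beside 92.5% of all genes). Against Itga2b alone or Tubb1 alone 5 did not overlap (beside 96.4% and 96.7%). With equal numbers paired, the 3 differences against the wider reference had the same sign for 9 members, each at a sign-flip p of 0.25. The share of all genes for that count was not computed. Pf4 turned to 0.057 against Tubb1, Vwf to 0.063 against Itga2b and 0.13 against Tubb1, and Mmrn1 to 0.0068 and 0.072. In the fits added later 8 members (5 lower, 3 higher) were called against the wider reference. The shares of all genes were 0.309% lower and 92.7% higher. With its replicate block 8 were called (5 lower, 3 higher), beside 0.363% and 93.7% of all genes. Against Itga2b 5 were called, all higher, beside 97.4% of all genes called higher. The fewest counts were those of Pdgfb in the non-radiated libraries (405 to 808) and of Treml1 in the radiated ones (570 to 762).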
